A study of Rattus norvegicus with 19 samples.

Results

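Amotl1, Adamts15 and Aldh1b1 are 3 rat genes that read lower in liver at the highest dose of a brominated flame retardant, and they were chosen for that difference. They were taken by platform gene symbol, out of 14217 genes with a lead probe set, which gave 4 of the 31042 probe sets tested: 2 for Amotl1 (1371627_at and 1376993_at), 1 for Adamts15 (1390931_at) and 1 for Aldh1b1 (1383472_at). A probe set is a group of short probes on the array that together measure 1 transcript. Of the Amotl1 probe sets, 1371627_at had the higher mean over all arrays and leads. All values are log2 signals, so a difference of 1 is a doubling. The question was at which dose each gene begins to read lower than in unexposed liver.

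The 3 proteins act in different places. Amotl1 (angiomotin like 1) is a scaffold protein of tight junctions and the actin cytoskeleton that binds the growth regulator YAP and holds it outside the nucleus, as part of the Hippo pathway. Adamts15 is a secreted metalloprotease with thrombospondin motifs that cleaves the large proteoglycans versican and aggrecan in the extracellular matrix. Aldh1b1 is a mitochondrial aldehyde dehydrogenase that oxidises acetaldehyde, retinaldehyde and aldehydes from lipid peroxidation. In the bulk tissue measured here, fewer cells of a type and less RNA per cell cannot be told apart.

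Livers were taken on postnatal day 4 in Wistar Han rats (Crl:WI (Han)). Dams received corn oil alone (vehicle) or corn oil with DE-71, a technical flame retardant product made of polybrominated diphenyl ethers, by gavage daily from gestation day 6 to postnatal day 4. The dams were 11 to 12 weeks old on arrival at gestation day 2. The groups were vehicle (5 arrays), 0.1 mg/kg per day (5 arrays), 15 mg/kg per day (4 arrays, numbered replicates 2 to 5) and 50 mg/kg per day (5 arrays). The labels do not say whether livers came from pups or dams, and the sex-linked transcripts given below bear on this. Nor do the labels say whether each array is a separate animal or litter. The p-values therefore speak of the spread among the arrays, part of which may be technical.

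Several arrays stand apart. The library labelled 0.1 mg/kg replicate 1 read 14.06 for Cyp1a1, the dioxin-inducible cytochrome P450 that marks exposure. The other 4 arrays of its group read 7.19 to 8.42, vehicle 7.10 to 8.36, the 15 mg/kg group 13.16 to 14.17 and the 50 mg/kg group 14.11 to 14.30. Vehicle replicate 2 and 0.1 mg/kg replicate 2 carry different dose labels but were the closest of all 171 pairs of arrays: their log2 values differed with an SD of 0.0919 over 15521 probe sets, against 0.201 for the next pair and a median of 0.394. Whether they are the same RNA was not tested. The hepatocyte markers (7 of 8 measured) averaged 14.48 to 14.57 on all arrays, and skeletal muscle markers (9 of 10 measured) ranged from 4.39 to 11.94. The sex is labelled female, but the Y-linked transcript Eif2s3y read 9.55 to 10.07 and Xist 3.88 to 4.29 on the 19 arrays. That is the pattern of male tissue, which liver of the dams would not give. By the number in the labels' description, 4 of the 5 arrays at 50 mg/kg are among the 7 arrays numbered 1 to 8 (early) and 1 is among the 12 numbered 9 to 20 (late), while every other group has 1 early array.

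Promoter sequence was printed for the members matched in the RefSeq table (build GRCr8), which were 2 of 3 genes. The reason is that the aryl hydrocarbon receptor (AhR), a known inducer of Cyp1a1, acts through a short DNA core. AhR activity was not tested here. Each sequence is the 250 bases before the outermost annotated start, 5′ to 3′ on the gene's strand, with matches to the searched motifs in capitals. The Amotl1 stretch is chr8:19749028-19749277 on the minus strand and the Aldh1b1 stretch is chr5:64858750-64858999 on the plus strand.
Amotl1: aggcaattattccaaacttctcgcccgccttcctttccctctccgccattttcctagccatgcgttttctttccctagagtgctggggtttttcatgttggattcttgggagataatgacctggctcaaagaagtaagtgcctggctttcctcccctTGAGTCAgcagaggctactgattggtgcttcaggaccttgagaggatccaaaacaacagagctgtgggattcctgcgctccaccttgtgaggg
Aldh1b1: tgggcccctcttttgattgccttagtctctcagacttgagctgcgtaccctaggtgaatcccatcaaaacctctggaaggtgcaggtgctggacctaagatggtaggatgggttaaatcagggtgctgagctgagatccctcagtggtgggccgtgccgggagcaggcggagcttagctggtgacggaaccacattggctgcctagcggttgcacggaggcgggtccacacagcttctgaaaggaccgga

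On both strands, the AhR core GCGTG matched 0 times in either stretch, and 25.9% of 33469 promoter stretches of the same length hold it. The motif GGAATG of the TEAD factors, the DNA-binding partners of YAP, also matched 0 times in both (12.1% of stretches hold it). The AP-1 motif TGACTCA matched 1 time in Amotl1, on the opposite strand and starting 93 bases before the start, and 0 times in Aldh1b1 (4.05% of stretches hold it). A match here is a string of letters in a window and says nothing of binding. RefSeq lists 5 starts for Amotl1, and the probe set does not tell which of them is used. In the windows of its other starts the AhR core and the TEAD motif also matched 0 times. The AP-1 motif matched 1 time in the nearest of these, which nearly coincides with the printed stretch, and 0 times in the rest.

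Amotl1 was lower at 15 mg/kg already. Its lead probe set read 10.21, 9.57, 9.21, 9.67 and 10.47 in vehicle replicates 1 to 5. At 0.1 mg/kg it read 9.17, 9.52, 9.28, 9.45 and 9.60. At 15 mg/kg it read 8.61, 8.69, 8.82 and 9.02 in replicates 2 to 5, and at 50 mg/kg 8.35, 8.98, 8.51, 8.35 and 8.78. Every array at 15 or 50 mg/kg lay below every vehicle array, as for 1.16% and 1.48% of all probe sets. Every 15 mg/kg array also lay below every 0.1 mg/kg array, as for 0.699% of all probe sets. The vehicle and 0.1 mg/kg groups overlapped, and so did the 15 and 50 mg/kg groups. The group means were 9.83 ± 0.509, 9.41 ± 0.177, 8.78 ± 0.178 and 8.59 ± 0.278 in order of dose (mean ± SD, n = 5, 5, 4 and 5).

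The comparison of 15 with 0.1 mg/kg uses no array labelled as part of the contrast on which the genes were chosen. Its array 0.1 mg/kg replicate 2, however, is nearly identical to vehicle replicate 2, which is in that contrast. Limma's SE, interval and adjusted p also draw on the spread of all 19 arrays. Between 15 and 0.1 mg/kg Amotl1 differed by -0.62 (SE 0.203, 95% interval -1.05 to -0.20), a 1.54-fold lower level. The exact two-sided permutation p was 0.0159 over 9 arrays, the smallest that 4 against 5 arrays can give. Over all probe sets the difference did not pass (limma adjusted p = 0.905). No probe set passed in that comparison (0% called of 31042 by limma). An unadjusted p under 0.05 was found for 1684 (5.42%), 877 of them lower. Groups in which all 15 mg/kg arrays lay lower were found for 0.699% of probe sets. Without the library labelled 0.1 mg/kg replicate 1 the Amotl1 difference was -0.68 (exact permutation p = 0.0286, the smallest possible with 4 against 4 arrays, and limma adjusted p = 0.434). The share of probe sets without overlap was then 2.34%, and limma called 1 probe set lower and 8 higher. With 0.1 mg/kg replicate 2 left out instead, the Amotl1 difference was -0.60.

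Against vehicle, whose arrays also enter the contrast that chose the genes, Amotl1 stood at -1.04 at 15 mg/kg (SE 0.203, 95% interval -1.47 to -0.62, exact permutation p = 0.0159, limma adjusted p = 0.191). No probe set was called at this dose (0% by limma, with 3083, or 9.93%, at an unadjusted p under 0.05), and 1.16% of probe sets had all 15 mg/kg arrays lower than vehicle. A count of 0 does not mean that no gene responded. Cyp1a1 read 13.16 to 14.17, against 7.10 to 8.36 in vehicle, and it did not pass either. In some alternatives probe sets were called higher, 7 with early or late position as a block and 13 with array weights. There were 9 without 0.1 mg/kg replicates 1 and 2 and vehicle replicate 2. At 0.1 mg/kg the Amotl1 difference was -0.42 (SE 0.192, 95% interval -0.82 to -0.02, exact permutation p = 0.127, limma unadjusted p = 0.042, limma adjusted p = 1). Without the library labelled 0.1 mg/kg replicate 1, which had high Cyp1a1, it was -0.36 (SE 0.205). At that dose 0% of probe sets were called by limma, and 0.0515% had all low-dose arrays below vehicle. An unadjusted p under 0.05 was found for 763 probe sets (2.46%), a share below that threshold itself. The near-identical arrays stand on opposite sides of this comparison, so its groups may not be independent. At 50 mg/kg the Amotl1 difference was -1.23 (SE 0.192), a 2.35-fold lower level, which is a description with no test because it chose the gene. In that contrast 1.61% of all probe sets were called, those called lower made up 0.383% of all, and 1.48% had all 50 mg/kg arrays below vehicle. Between 50 and 15 mg/kg the difference was -0.19 (95% interval -0.62 to 0.24), and all 50 mg/kg arrays lay below the 15 mg/kg arrays in 1.02% of probe sets.

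The other Amotl1 probe set, 1376993_at, lay near the low end of the range, with a mean of 4.57 against a median of 6.08 over all probe sets, where 27.6% of probe sets are dimmer. It ranged from 4.60 to 4.77 in vehicle, 4.46 to 4.89 at 0.1 mg/kg, 4.49 to 4.80 at 15 mg/kg and 4.20 to 4.56 at 50 mg/kg. Its difference between 15 and 0.1 mg/kg was 0.02 (SE 0.0961, exact permutation p = 0.873, limma adjusted p = 0.985), so the lower level at 15 mg/kg was seen on 1 of the 2 probe sets.

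**Figure D1:**
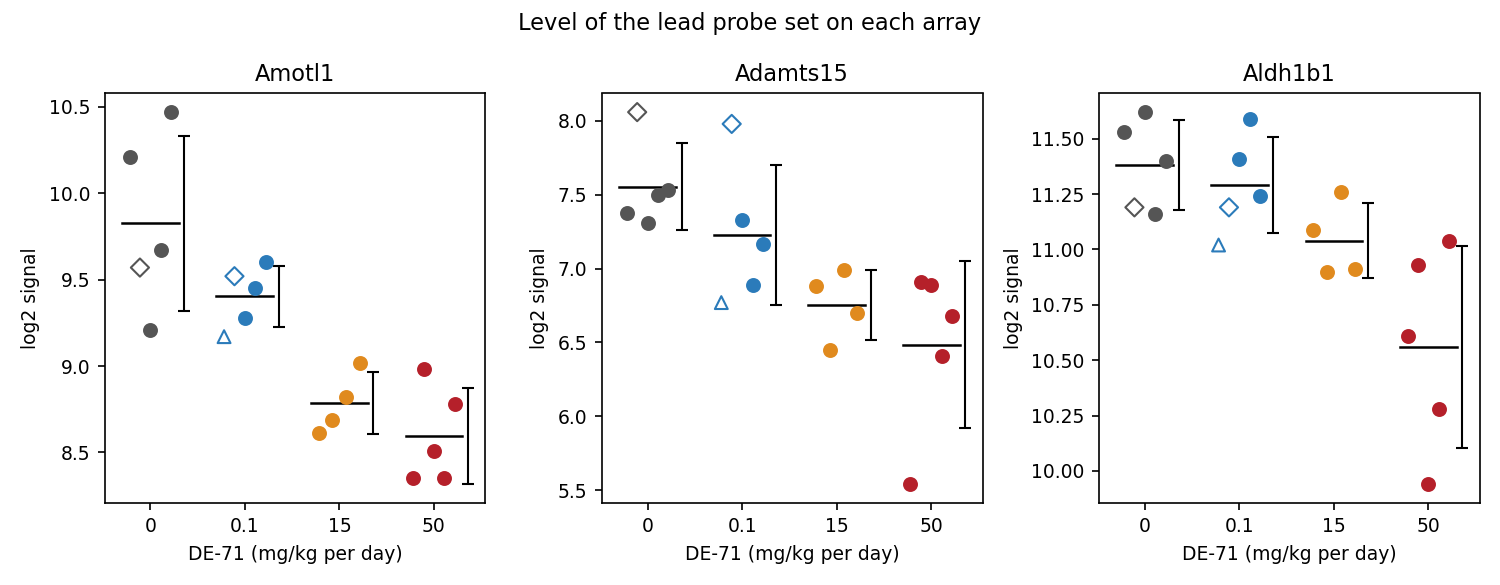
Log2 signal of the lead probe set of Amotl1, Adamts15 and Aldh1b1 on each array (points) by DE-71 dose, with the group mean (line) and SD (bar). The open triangle is the library labelled 0.1 mg/kg replicate 1, and the open diamonds are the near-identical arrays vehicle replicate 2 and 0.1 mg/kg replicate 2. Amotl1 arrays at 15 mg/kg (8.61 to 9.02) lie below all arrays at 0.1 mg/kg, as for 0.699% of all probe sets, while Aldh1b1 at 15 mg/kg (10.90 to 11.26) overlaps vehicle.

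Transcripts of skeletal muscle moved with Amotl1 in the vehicle group. Vehicle replicates 1 and 5, the highest in Amotl1, had mean muscle marker levels of 11.94 and 9.90, against 4.46 to 5.34 in the other 3 vehicle arrays, 4.39 to 5.35 at 0.1 mg/kg and 4.92 to 8.38 at 15 mg/kg. At 50 mg/kg, replicates 2 and 3 also carried muscle transcripts (10.44 and 9.99), and Amotl1 there read 8.98 and 8.51, below every vehicle array. Leaving out those 4 arrays gave Amotl1 differences from vehicle of -0.08 at 0.1 mg/kg, -0.70 at 15 mg/kg and -0.99 at 50 mg/kg. The muscle transcripts' part in the differences that remain was not tested. Stellate cell markers (8 of 8 measured) were likewise highest in vehicle replicate 1 (11.00), and ranged from 9.12 to 11.00 in vehicle, 9.08 to 9.68 at 0.1 mg/kg, 8.76 to 10.15 at 15 mg/kg and 8.85 to 10.20 at 50 mg/kg.

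Adamts15 was lower than vehicle on every array at 15 and 50 mg/kg, with a partial overlap of 15 and 0.1 mg/kg. Over all probe sets, 1.16% lay wholly below vehicle at 15 mg/kg and 1.48% at 50 mg/kg. The 50 mg/kg contrast is the one that chose the gene. Vehicle replicates 1 to 5 read 7.38, 8.06, 7.31, 7.50 and 7.53. At 0.1 mg/kg the values were 6.77, 7.98, 7.33, 6.89 and 7.17, at 15 mg/kg 6.88, 6.45, 6.99 and 6.70, and at 50 mg/kg 5.54, 6.91, 6.89, 6.41 and 6.68. Low-dose replicates 1 and 4 lay within the range of the 15 mg/kg group, and 1 array at 50 mg/kg stood well below the rest. The means were 7.56 ± 0.297, 7.23 ± 0.476, 6.75 ± 0.237 and 6.49 ± 0.565 in order of dose (mean ± SD, n = 5, 5, 4 and 5).

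Between 15 and 0.1 mg/kg Adamts15 differed by -0.47 (SE 0.265, 95% interval -1.03 to 0.08), which was within the spread of the arrays (exact permutation p = 0.0952, limma adjusted p = 0.908). Without the library labelled 0.1 mg/kg replicate 1 it was -0.59 (exact permutation p = 0.0571, limma adjusted p = 0.601). Against the shared vehicle arrays it stood at -0.80 at 15 mg/kg (SE 0.265, exact permutation p = 0.0159, limma adjusted p = 0.429) and at -0.33 at 0.1 mg/kg (SE 0.25, exact permutation p = 0.214, limma adjusted p = 1). The 0.1 mg/kg value was -0.21 (SE 0.26) without the library labelled 0.1 mg/kg replicate 1. The 50 mg/kg value was -1.07 (SE 0.25), 2.10-fold lower, as a description, and the difference between 50 and 15 mg/kg was -0.27 (95% interval -0.82 to 0.29).

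The highest Adamts15 values, 8.06 and 7.98, came from the near-identical pair, and both arrays carried kidney transcripts: the kidney markers (7 of 8 measured) averaged 10.26 and 10.27 there, 7.61 in 50 mg/kg replicate 3 and 4.93 to 5.22 on the other 16 arrays. Exocrine pancreas markers (8 of 10 measured) were also highest in that pair, at 8.58 and 8.56, followed by 15 mg/kg replicate 5 at 8.04 and vehicle replicate 4 at 7.55, where Adamts15 read 6.70 and 7.50. They ranged from 5.23 to 5.43 at 50 mg/kg. Bile duct markers (7 of 8 measured) read 7.55 and 7.57 in the pair, 7.97 in 15 mg/kg replicate 5 and 5.56 to 6.24 on the other arrays. Without the pair and the library labelled 0.1 mg/kg replicate 1, Adamts15 stood at -0.68 at 15 mg/kg and -0.94 at 50 mg/kg against vehicle, and at -0.38 between 15 and 0.1 mg/kg. The part of the kidney, pancreas and bile duct transcripts in what remains was not tested.

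**Figure D2:**
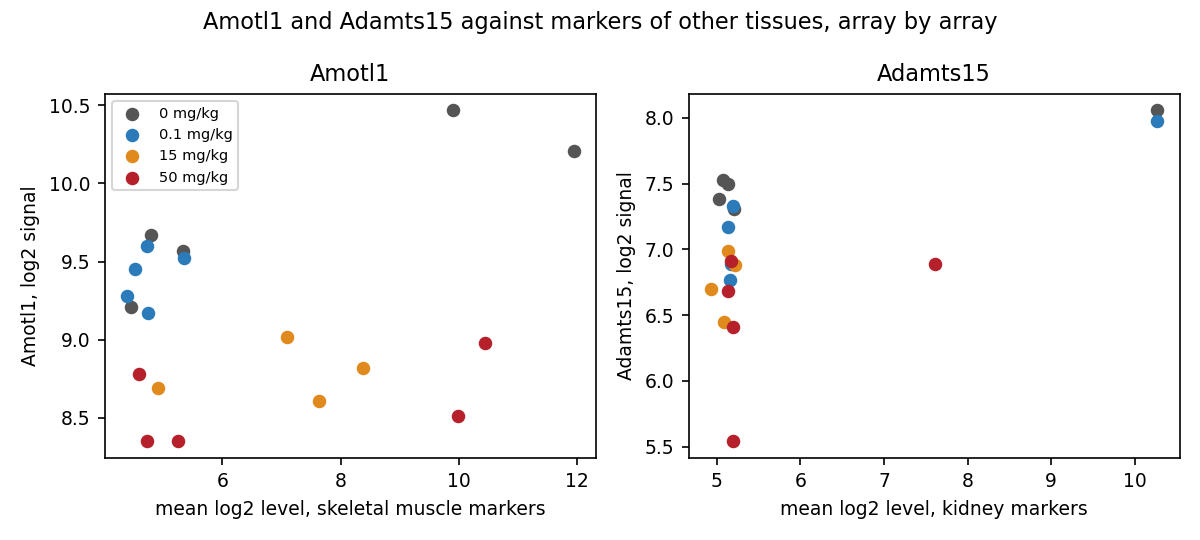
Log2 signal of Amotl1 against the mean log2 level of 9 skeletal muscle markers, and of Adamts15 against that of 7 kidney markers, 1 point per array, coloured by DE-71 dose. The 2 highest Amotl1 arrays are vehicle arrays with muscle marker levels of 11.94 and 9.90, and the 2 highest Adamts15 arrays have kidney marker levels of 10.26 and 10.27.

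Aldh1b1 had the brightest of the 3 lead probe sets, above 96.4% of probe sets, and its groups separated from vehicle at 50 mg/kg only. That contrast chose the gene, and 1.48% of all probe sets lay wholly below vehicle in it. Vehicle replicates 1 to 5 read 11.53, 11.19, 11.62, 11.16 and 11.40, and the 0.1 mg/kg arrays 11.02, 11.19, 11.41, 11.59 and 11.24. At 15 mg/kg the values were 11.09, 10.90, 11.26 and 10.91, and at 50 mg/kg 10.61, 10.93, 9.94, 10.28 and 11.04. At 15 mg/kg 3 of the 4 arrays lay below all vehicle arrays and replicate 4 lay among them, and the 50 mg/kg arrays were the most scattered. The means were 11.38 ± 0.203, 11.29 ± 0.218, 11.04 ± 0.17 and 10.56 ± 0.456 in order of dose (mean ± SD, n = 5, 5, 4 and 5).

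Aldh1b1 differed by -0.25 between 15 and 0.1 mg/kg (SE 0.184, 95% interval -0.64 to 0.14, exact permutation p = 0.111, limma adjusted p = 0.931), and by -0.32 without the library labelled 0.1 mg/kg replicate 1 (exact permutation p = 0.0857, limma adjusted p = 0.69). Against the shared vehicle arrays the differences were -0.34 at 15 mg/kg (SE 0.184, exact permutation p = 0.0635, limma adjusted p = 0.543) and -0.09 at 0.1 mg/kg (SE 0.174, exact permutation p = 0.54, limma adjusted p = 1). The 0.1 mg/kg value was -0.02 (SE 0.183) without the library labelled 0.1 mg/kg replicate 1. The 50 mg/kg difference was -0.82 (SE 0.174), 1.76-fold lower, and the difference from 15 mg/kg was -0.48 (95% interval -0.87 to -0.09), both without a test.

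At 50 mg/kg Aldh1b1 read lower on the early arrays (mean 10.44) than on the single late array (11.04). At 0.1 mg/kg the single early array, replicate 1 with the high Cyp1a1, read 11.02, against a late mean of 11.36. In vehicle and at 15 mg/kg the early array stood higher, at 11.53 against 11.34 and at 11.09 against 11.02. Among the late arrays the single 50 mg/kg array (11.04) lay 0.30 below the vehicle mean, and the 3 arrays at 15 mg/kg stood at -0.32 against the same 4 vehicle arrays. Among the early arrays the 4 arrays at 50 mg/kg stood at -1.09 against 1 vehicle array and at -0.65 against 1 array at 15 mg/kg. For Amotl1 the 50 mg/kg difference from vehicle was -1.67 early and -0.95 late, and for Adamts15 it was -0.95 early and -0.92 late. Each of these values has 1 array in at least 1 arm except the late comparisons of 15 mg/kg, which gave -0.89 for Amotl1 and -0.89 for Adamts15 (3 against 4 arrays). The 3 lowest Aldh1b1 values also came with the lowest hepatocyte marker means of the 50 mg/kg group, 14.48, 14.49 and 14.51 in replicates 3, 4 and 1, against 14.56 in replicates 2 and 5. In other groups, vehicle replicate 2 and 0.1 mg/kg replicate 2 also averaged 14.51 and read 11.19 in Aldh1b1. At 15 mg/kg replicates 4 and 5 both averaged 14.52 and read 11.26 and 10.91. All these marker means lie between 14.48 and 14.57, near the highest value on any array (15.06), so their small differences may not follow hepatocyte content. The part of array position or of these markers in the difference was not tested.

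**Figure D3:**
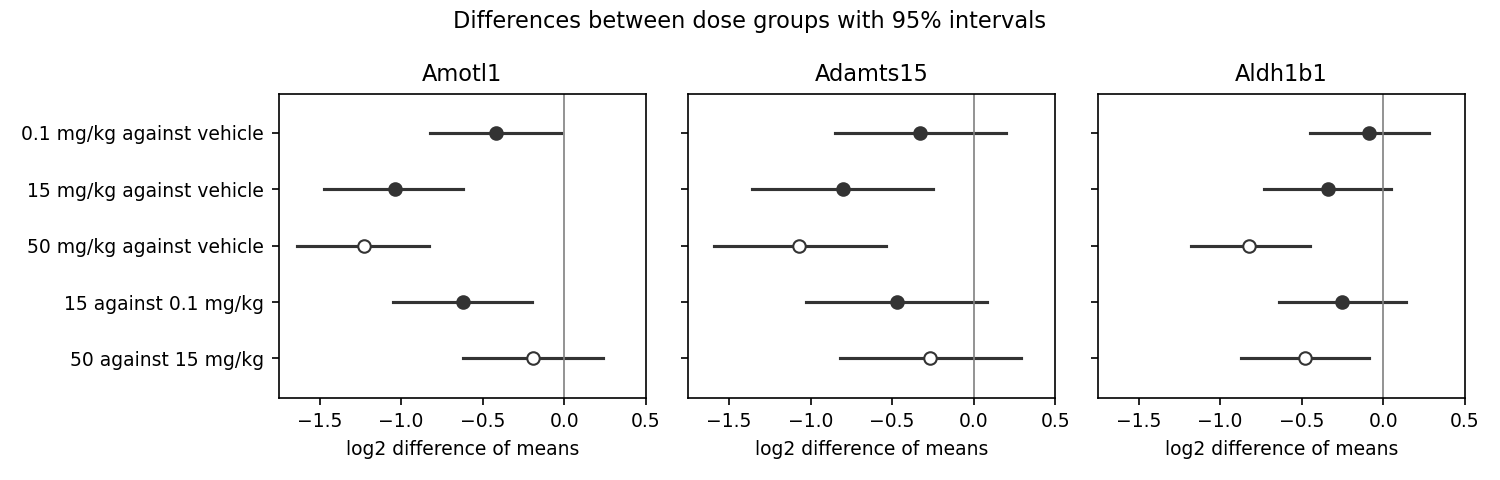
Differences of mean log2 signal between dose groups for the lead probe sets, with limma's 95% intervals. Filled points are tested comparisons and open points, which involve 50 mg/kg, are descriptions, since the genes were chosen on 50 mg/kg against vehicle. For Amotl1 the 15 against 0.1 mg/kg difference is -0.62, and for Aldh1b1 the largest step is -0.48, between 50 and 15 mg/kg.

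The 3 genes differed in which arrays were extreme within a dose group. In vehicle the highest array was replicate 5 for Amotl1, replicate 2 for Adamts15 and replicate 3 for Aldh1b1. At 50 mg/kg the lowest was replicate 1 for Adamts15 (5.54) and replicate 3 for Aldh1b1 (9.94), and replicates 1 and 4 tied for Amotl1 at 8.35. In the 0.1 mg/kg group, by contrast, replicate 1, the array with high Cyp1a1, was the lowest of the 5 for all 3 genes: 9.17, 6.77 and 11.02. In Adamts15 and Aldh1b1 that value lay within the range of the 15 mg/kg arrays, and in Amotl1 it lay above them.

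Genes that work beside Amotl1 were counted against the share of all probe sets called at 50 mg/kg, 1.61%, at which lists of this size would hold few calls or none. Of 16 other measured angiomotin and Hippo genes, 0 rose and 0 fell at 50 mg/kg (median difference -0.06, against 0.01 over all 14217 genes; range -0.35 to 0.32). The relative Amot, also an angiomotin, stood at -0.35 (SE 0.127, limma adjusted p = 0.184), with 9.94 to 10.30 in vehicle and 9.45 to 10.23 at 50 mg/kg. Of 16 YAP and TEAD target genes 1 rose and 0 fell (median -0.11), and of 18 tight junction genes 0 passed (median -0.01).

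The target gene that rose was Gadd45b, a stress-response gene. It went from 6.23 ± 0.322 in vehicle to 7.28 ± 0.633 at 50 mg/kg (n = 5 each), a difference of 1.05 (SE 0.234, limma adjusted p = 0.0313). The call held in 12 of 22 alternatives (adjusted p from 0.0087 to 0.434), and it ended when the early or late position entered the fit as a block (0.90, adjusted p = 0.178), in the compared groups alone (adjusted p = 0.102), without the 4 muscle-rich arrays (0.64, adjusted p = 0.434) and with each of vehicle replicates 1, 3, 4 and 5 or 50 mg/kg replicates 2, 3 and 4 left out (adjusted p = 0.0605, 0.056, 0.0699, 0.077, 0.0732, 0.0739 and 0.0774). Igfbp3, a carrier of insulin-like growth factors, stood at -0.69 (SE 0.195, limma adjusted p = 0.0854). Among tight junction genes the largest differences were 0.36 for the claudin Cldn3 and 0.35 for the scaffold Tjp3 (limma adjusted p = 0.355 and 0.255).

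The same background of 1.61% applies to the other ADAMTS proteases and the matrix proteins they cut. Of 11 other measured ADAMTS genes, 0 rose and 0 fell at 50 mg/kg (limma; median -0.18). At 15 mg/kg all 11 stood between -0.61 and -0.05 against vehicle (median -0.25, against 0.00 over all genes) with 0 passing, where 0% of probe sets were called. Against 0.1 mg/kg their differences at 15 mg/kg ran both ways, from -0.56 to 0.25 (median -0.09). The largest of them at 50 mg/kg was Adamts8 at -0.59 (SE 0.441, adjusted p = 0.545), a dim probe set with a vehicle SD of 1.09. Of 14 genes for hyalectans, hyaluronan handling and tissue inhibitors of metalloproteinases 0 passed (median 0.00). The substrate versican (Vcan) stood at -0.58 (SE 0.484, adjusted p = 0.594) and the inhibitor Timp3 at -0.41 (SE 0.367, adjusted p = 0.623).

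Of 16 other aldehyde dehydrogenases 0 passed at 50 mg/kg (limma; median 0.11, range -0.44 to 1.24), where 1.61% of all probe sets were called. The cytosolic retinaldehyde dehydrogenase Aldh1a1 stood at 1.24 with a wide spread (SE 0.694, adjusted p = 0.403), from 9.40 ± 1.57 in vehicle to 10.64 ± 0.582. Of 14 genes of alcohol and retinol oxidation 1 rose and 0 fell (median 0.09). Rdh10, which oxidises retinol to retinaldehyde, went from 8.24 ± 0.162 to 8.73 ± 0.104 (n = 5 each), a difference of 0.49 (SE 0.105, limma adjusted p = 0.0262). Its call held in 14 of 22 alternatives (adjusted p from 0.0124 to 0.276), and it ended with that position as a block (0.44, adjusted p = 0.148), without the 4 muscle-rich arrays (adjusted p = 0.276), without the library labelled 0.1 mg/kg replicate 1 and vehicle replicates 1 and 2 together (0.39, adjusted p = 0.108), and without vehicle replicate 1, 2 or 5 or 50 mg/kg replicate 1 or 4 (adjusted p = 0.0576, 0.0709, 0.0542, 0.0739 and 0.0714). The retinoic acid hydroxylase Cyp26b1 stood at -0.50 and the alcohol dehydrogenase Adh4 at 0.50 (adjusted p = 0.253 and 0.455). At 15 mg/kg, against vehicle or 0.1 mg/kg, limma called 0 genes of these 7 lists.

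**Figure D4:**
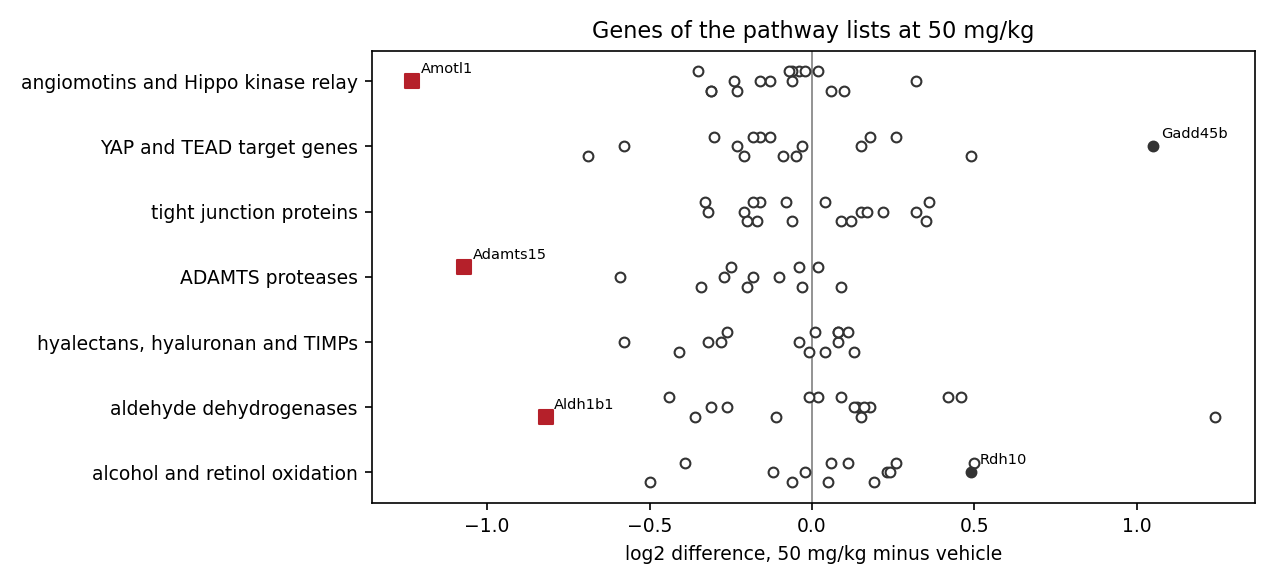
Difference of mean log2 signal between 50 mg/kg and vehicle for each measured gene of the 7 lists, 1 point per gene and list. Red squares are Amotl1, Adamts15 and Aldh1b1, filled black points passed limma's threshold (Gadd45b and Rdh10), and open points did not. The red squares stand at -1.23, -1.07 and -0.82, values on which the 3 genes were chosen.

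The genes whose levels ran most like each member were found by Pearson's r over the 19 arrays among 7109 genes at or above the median level; these values share the dose groups, the arrays and the normalization, and are descriptions. For Amotl1 they were Pdk2 (0.874), Efna5 (0.844), Kdm5c (0.842), Rnase4 (0.835) and Cstf2t (0.832). For Adamts15 they were Tbpl1 (0.880), Rab2b (0.878), Nisch (0.878), Nudt16l1 (0.877) and Lrch3 (0.867). Aldh1b1 had the closest companions, Itih2 (0.936), Slc13a4 (0.912), Pklr (0.900), Golm1 (0.889) and Pam (0.889). Without the library labelled 0.1 mg/kg replicate 1 and the near-identical pair, r for these 15 genes lay between 0.801 and 0.949 (16 arrays).

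After each dose group's mean was subtracted, the order changed. Amotl1 then ran closest to Ccdc107 (0.810), Kdm5c (0.803) and Xrn1 (0.801), Adamts15 to Map4k3 (0.874), Plcg1 (0.812) and Nisch (0.800), and Aldh1b1 to Itih2 (0.877), Sacm1l (0.868) and Abcc9 (0.860). Kdm5c, Nisch and Itih2 were in both sets. Over the 16 arrays without the doubted ones, r was 0.663 for Plcg1 and 0.680 for Nisch with Adamts15, and 0.814 to 0.898 for the other 7 of these pairs. The differences between 50 mg/kg and vehicle of these genes ranged widely, from -0.91 for Pklr, liver pyruvate kinase, and -0.86 for Efna5, an ephrin, to -0.22 for Itih2 and 0.23 for Abcc9.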

How the data were processed

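Liver RNA was measured on 19 Affymetrix Rat230_2 arrays, after amplification of 100 ng of total RNA per the labels' protocols. The authors deposited 1 log2 signal per probe set and array. RMA, a method that corrects background, normalizes by quantiles and summarises probes, is named in the submitters' processing notes, its version not given in the sources used here. Differences of dim probe sets can be compressed by it. The number of arrays limits the precision.

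From these values 57 control probe sets were left out. Symbols came from the platform annotation (20826 probe sets with 1 symbol, 436 with several, 9780 with none), updated by gene ID for 20758. A gene's lead probe set has the highest mean over 19 arrays. The submitters' design notes compare vehicle with each dose by R/maanova. Here 1 mean per dose group was fitted to all arrays with limma 3.58.1 in R 4.3.3 (15 residual and 2.78 prior degrees of freedom; two-sided, Benjamini-Hochberg over 31042 probe sets). SE is limma's and takes in the spread of all groups. Exact permutation tests over arrays (12 for 4 probe sets and 3 comparisons, and 4 more at 15 against 0.1 mg/kg without the library labelled 0.1 mg/kg replicate 1) are two-sided and stand beside limma's adjusted p.

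The members, gene lists, alternatives and naming rule were chosen with earlier results of these data known. Named were the members, list genes that passed, the 2 largest differences per list at 50 mg/kg, and the 5 and 3 genes of most similar pattern. The fit was tested on simulated data.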

Additional observations from a re-analysis of the deposited data

Results flagged for a closer look

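Of 20 dose groups tested for a single array far from the others (Amotl1, Adamts15, Aldh1b1 and Cyp1a1 probe sets, 4 groups each), 2 were marked, where chance gives about 1 in 20. In the dim Amotl1 probe set 1376993_at the array 0.1 mg/kg replicate 5 read 4.89, and the other 4 arrays of its group read 4.46 to 4.56. The array labelled 0.1 mg/kg replicate 1 stood apart in Cyp1a1 at 14.06, and the nearest of the other 4 read 8.42.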

How the results depend on the processing

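The members' differences at 15 against 0.1 mg/kg kept their sign and did not pass limma's threshold in the alternatives run (21 for Amotl1, 20 each for Adamts15 and Aldh1b1), at -0.70 to -0.30, -0.61 to -0.29 and -0.37 to -0.18. The same held for 15 mg/kg against vehicle, at -1.20 to -0.56, -0.93 to -0.68 and -0.41 to -0.28. The Amotl1 values nearest 0 are those of the mean of both probe sets, which gave -0.74 at 50 mg/kg. Aldh1b1 at 0.1 mg/kg turned to 0.04 with array weights, and the cause was not tested. Probe sets called lower at 15 against 0.1 mg/kg numbered 0 to 1 with 1 array left out (1 without 0.1 mg/kg replicate 1), 1 without that array and vehicle replicates 1 and 2, and 4 without it and the near-identical pair (chosen after seeing the data, as was leaving out the 4 muscle arrays), a set that gave 1 at 15 mg/kg against vehicle. At 50 mg/kg the 119 lower calls became 196 with the filter on dim probe sets, 75 in the compared groups alone, 63 centred on medians, 290 with array weights, 5 with the early and late block, 0 without the 4 muscle arrays, and 23 to 162 with 1 array left out (162 without 0.1 mg/kg replicate 1, which is in neither group; 23 without 50 mg/kg replicate 1; 39, 57 and 76 without replicates 4, 3 and 2; 41, 41, 45 and 65 without vehicle replicates 4, 5, 1 and 2). The labels tie no animal or batch to the replicate numbers, and not every same-numbered pair correlated above 0.1: deviations of same-numbered arrays correlated at -0.302 to 0.28 between 15 and 0.1 mg/kg at -0.146 to 0.372 between 15 mg/kg and vehicle, at 0.0452 to 0.886 between 0.1 mg/kg and vehicle (highest for the near-identical pair) and at -0.471 to 0.471 between 50 mg/kg and vehicle. In these, 0 of 4, 1 of 4, 2 of 5 and 1 of 5 arrays correlated best with their own number. With the replicate block the calls at 50 mg/kg were 148 lower, and Amotl1, Adamts15 and Aldh1b1 stood at -0.63, -0.61 and -0.26 between 15 and 0.1 mg/kg.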
